A study of Homo sapiens with 6 samples.

Results

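The genes described here encode the human m6A writers, the enzymes and partner proteins that place N6-methyladenosine (m6A) on RNA, with METTL16, METTL3, METTL14, WTAP, KIAA1429 (now named VIRMA), RBM15, RBM15B, ZC3H13 and CBLL1 as the 9 members. A deposited m6A peak was assigned to a gene where its centre lay inside a given hg19 span of that gene on the same strand. By this rule 77 of the 61147 deposited peaks belonged to the writers, with 23 in the list of MeRIP 1, 26 in that of MeRIP 2 and 28 in that of MeRIP 3. Peaks from different lists were merged wherever they overlapped on one strand by 1 bp or more, which gave 31 writer regions out of 25737 regions in all. No region held more than 1 peak of the same list. Of the 9 genes, 8 had a peak and METTL3 had none.

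Most m6A in mRNA is placed during transcription by a large nuclear complex. METTL3 carries the catalytic site and METTL14, its partner, holds the RNA. WTAP, VIRMA, ZC3H13, CBLL1 and either RBM15 or RBM15B form the regulatory part that keeps this pair in the nucleus and brings it to its targets, many of them in long internal exons and near stop codons. METTL16 works apart from that complex. It methylates the U6 small nuclear RNA and hairpins at the end of the MAT2A mRNA, whose product makes S-adenosylmethionine, the methyl donor of all these enzymes.

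All libraries came from wild-type HEK293T cells, an established line from human embryonic kidney that expresses SV40 large T antigen, with no treatment and no altered gene named in the labels. Each of the 3 repeats, MeRIP 1, 2 and 3, had a library of RNA pulled down with an m6A antibody and an input library of RNA taken before the pull-down, 6 libraries in all. Each repeat has 1 deposited peak list, so a list already sets pull-down against input. The series as a whole concerns RNA methylated by METTL16 and its binding by the splicing factor SF3B4. There is no second condition, and the comparisons below are between repeats and between genes. Separate cultures are not named in the labels, and the spread between lists may be technical.

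Every peak carries a score given by the authors. Scores ran from a lowest value of 50 to 3100, a value shared by many peaks and treated as a ceiling, with a few peaks above it and none of them in a writer gene. Their form is that of the log of a p-value. A score of that kind ranks how clearly the pull-down exceeded the input. It depends on the amount of RNA and on peak width as well as on methylation, and these cannot be told apart in peak lists. A region at the ceiling in all lists has no measurable spread, and ratios of scores are not folds of methylation. Read depth is unknown from peak lists, and expression markers of the cell line were not checked because the lists hold no expression values.

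Writer regions were found again about as often as other regions. A larger share of them was at the score ceiling, with ZC3H13 the main source. A peak in all 3 lists was found for 18 of 31 writer regions (58.1%, 95% Wilson interval 40.8 to 73.6%), beside 59.3% of all regions, a share near the background. Of these 18 regions, 9 (50%, 29.0 to 71.0%) were at the ceiling in every list, beside 18.9% of all regions found in 3 lists. ZC3H13 alone supplied 5 of the 9. Without ZC3H13, 11 of 19 regions were in all 3 lists and 4 of those 11 (36.4%) were at the ceiling in each. No interval was computed for this share, which rests on 4 regions. These are descriptions of a small set of genes and were not tested.

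The median score of writer peaks was 1257 in MeRIP 1, 772 in MeRIP 2 and 522 in MeRIP 3. These medians are over 23, 26 and 28 peaks, of which 10, 10 and 11 were at the ceiling. They are not medians of the same regions in each list. Over all peaks the medians were 420, 422 and 443, so the writers were above the whole list in each repeat. This depended on ZC3H13 in MeRIP 3. Without that gene the writer medians were 1029, 629 and 235, and the last lay below the median of its whole list. On the log2 scale the writer median was 9.64 ± 0.63 (SD, n = 3 lists), beside 8.74 ± 0.04 for all peaks. Peak width was similar. Regions over 1000 bp made up 6 of the 18 in all lists (33.3%), beside 31.8% of all regions in 3 lists. The median width of regions in all 3 lists was 478.5 bp for writers and 538 bp for all. For single peaks the list medians averaged 454.3 ± 30.9 bp for writers and 429.5 ± 13.6 bp for all peaks (SD, n = 3 lists).

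**Figure D1:**
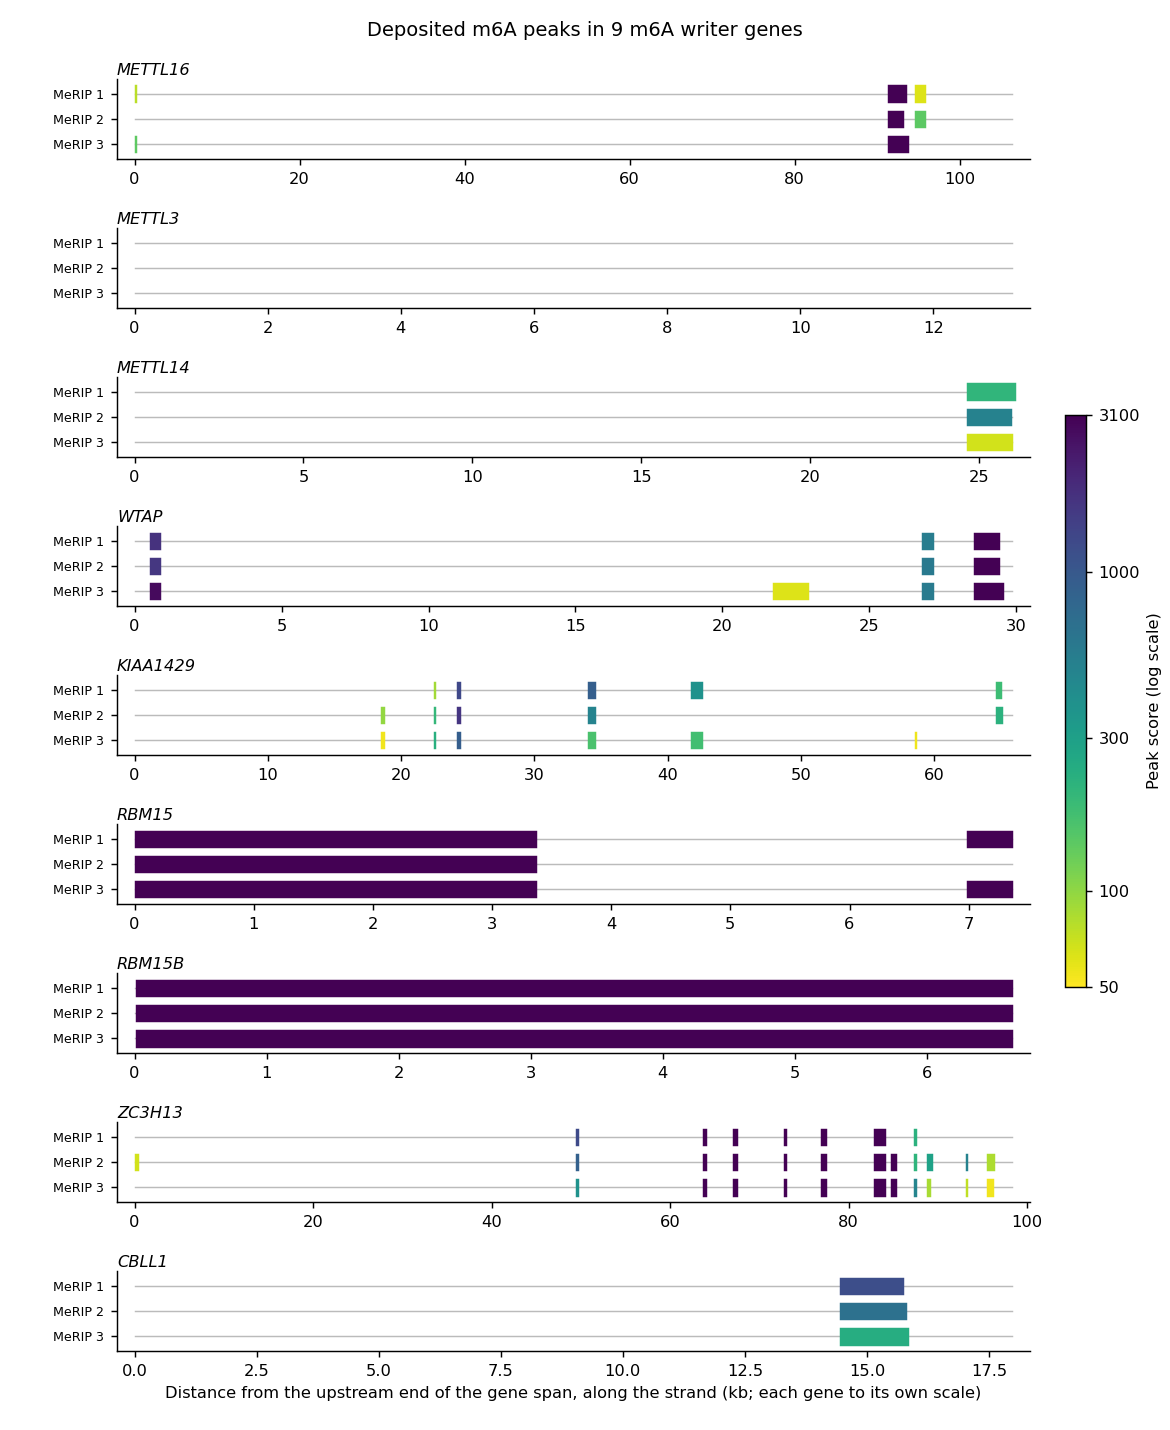
Peaks of the 3 lists along the span of each writer gene, drawn from the upstream end in kb with each gene to its own scale, and coloured by score on a log scale from 50 to 3100. METTL3 is empty, METTL14 and CBLL1 each hold 1 region, RBM15B is covered from end to end, and ZC3H13 holds 12 regions.

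METTL16, the writer that works outside the METTL3 complex, had 1 region at the ceiling in every list and 2 weak regions found in 2 lists each. The strong region spans bases 2321424 to 2323890 of the minus strand of chromosome 17 (hg19), 91.3 kb downstream of the start of the 106351 bp span. Its score was 3100 in MeRIP 1, MeRIP 2 and MeRIP 3. With 2467 bp it was among the wider regions, since 8.19% of regions in all 3 lists were at least as wide. All 3 lists placed its upstream edge at base 2323890. The downstream edge was at 2321680 in MeRIP 1, 2322086 in MeRIP 2 and 2321424 in MeRIP 3, a spread of 662 bp, the widest at any edge of a writer region. Exons, introns and untranslated regions were not assigned here because no hg19 annotation was used.

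The weak METTL16 regions lay on either side of it. One was a 148 bp region at 2415053 to 2415200, at the upstream end of the span, which scored 76.8 in MeRIP 1 and 139.4 in MeRIP 3 and had no peak in MeRIP 2. Its edges were the same to the base in both lists that held it. The other lay 864 bp downstream of the strong region, at 2319348 to 2320559, with 62.4 in MeRIP 1, 141.3 in MeRIP 2 and no peak in MeRIP 3. These scores stood in the lower part of their lists. Of the peaks of the same list, 10.9% scored below the first region in MeRIP 1 and 25.4% in MeRIP 3. The shares for the second were 5.57% in MeRIP 1 and 26.1% in MeRIP 2. METTL16 peaks covered 3571 bp in MeRIP 1, 3010 bp in MeRIP 2 and 2615 bp in MeRIP 3. This was 2.88% of the span on average, nearly all of it in the last part of the gene.

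METTL3, the catalytic subunit, had no listed peak in any of the 3 repeats. Its span of 13181 bp on chromosome 14 held no peak on either strand. The nearest listed peak on one side was the same distance away in each list, 9.77 kb upstream on the minus strand, with a score of 3100 in each. On the other side the nearest was 66.3 kb away in MeRIP 1 and MeRIP 2, and 4.86 kb away in MeRIP 3, where it was a plus-strand peak with a score of 57.6. Peaks of each list are numbered in the order of their position, with 0 neighbours out of order. Between these flanking peaks 8, 4 and 3 numbers are left out in MeRIP 1, 2 and 3. Whether any peak with such a number lay in METTL3 was not determined. A gene with no listed peak cannot be read as unmethylated.

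METTL14, the RNA-holding partner of METTL3, had a single region at the downstream end of its span. It was 1431 bp wide and ran from base 119631153 to 119632583 on the plus strand of chromosome 4. The score was 209 in MeRIP 1, 499.5 in MeRIP 2 and 66.7 in MeRIP 3. Its highest score was 7.49 times the lowest, the largest ratio among writer regions found in all 3 lists. MeRIP 2 stood above the median of its list, with 53.5% of peaks below it, and MeRIP 3 near the bottom, with 7.12% below it. The upstream edge was at 119631153 in every list, while the downstream edge moved by 112 bp. In MeRIP 1 the peak ended 91 bp past the end of the span. Within the catalytic pair, METTL3 thus had no peak and METTL14 a single one, at no more than a middling rank.

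WTAP, the adaptor that ties METTL3 and METTL14 to the regulatory part, had 3 regions in all 3 lists, spread over both ends of its span on chromosome 6. The first lay 0.53 kb from the upstream end, at 160148030 to 160148365 (plus strand), and its score was 1713 in MeRIP 1, 1619 in MeRIP 2 and 2792 in MeRIP 3. It is a strong region near the start of a writer gene, and both edges were the same in all 3 lists. The second, at 160174290 to 160174646, had scores of 549, 587 and 570 in MeRIP 1, 2 and 3. These differed by 1.07 times between the highest and the lowest list, the smallest ratio of any writer region below the ceiling. The last, at 160176060 to 160177030, was at 3100 in every list. A 4th WTAP region, of 1203 bp at 160169223 to 160170425, was found in MeRIP 3 alone with a score of 62.2. The 3 shared regions covered 1526 bp in MeRIP 1, 1553 bp in MeRIP 2 and 1664 bp in MeRIP 3, and with the 4th region MeRIP 3 had 2867 bp.

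KIAA1429 encodes VIRMA, the largest scaffold of the complex, which is known to steer methylation towards the 3′ end of mRNAs. It had 7 regions on chromosome 8, none of them at the ceiling in any list. The strongest, at 95541298 to 95541570 on the minus strand, scored 1257 in MeRIP 1, 1632 in MeRIP 2 and 916 in MeRIP 3. Another region in every list, at 95531213 to 95531704, scored 898, 492 and 165, so that MeRIP 1 was 5.45 times MeRIP 3. A narrow region of 123 bp at 95543191 to 95543313 went the other way, with 88.5 in MeRIP 1, 199 in MeRIP 2 and 230 in MeRIP 3. Repeats therefore did not order these neighbouring regions of 1 gene alike.

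The remaining KIAA1429 regions were found in fewer lists. The widest of the gene, 752 bp at 95523206 to 95523957, scored 378 in MeRIP 1 and 174 in MeRIP 3 and had no peak in MeRIP 2. The most downstream region, at 95500677 to 95501088, scored 182 in MeRIP 1 and 224 in MeRIP 2 and had no peak in MeRIP 3. A region of 169 bp at 95547067 to 95547235 was found in MeRIP 2 with 97.8 and in MeRIP 3 with 54.4. A region of 97 bp was found in MeRIP 3 alone, with 55.9. All lists shared 3 of the 7 regions, 2 lists shared another 3, and 1 was found once. Together the peaks covered 2037 bp, 1469 bp and 1906 bp in MeRIP 1, 2 and 3.

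**Figure D2:**
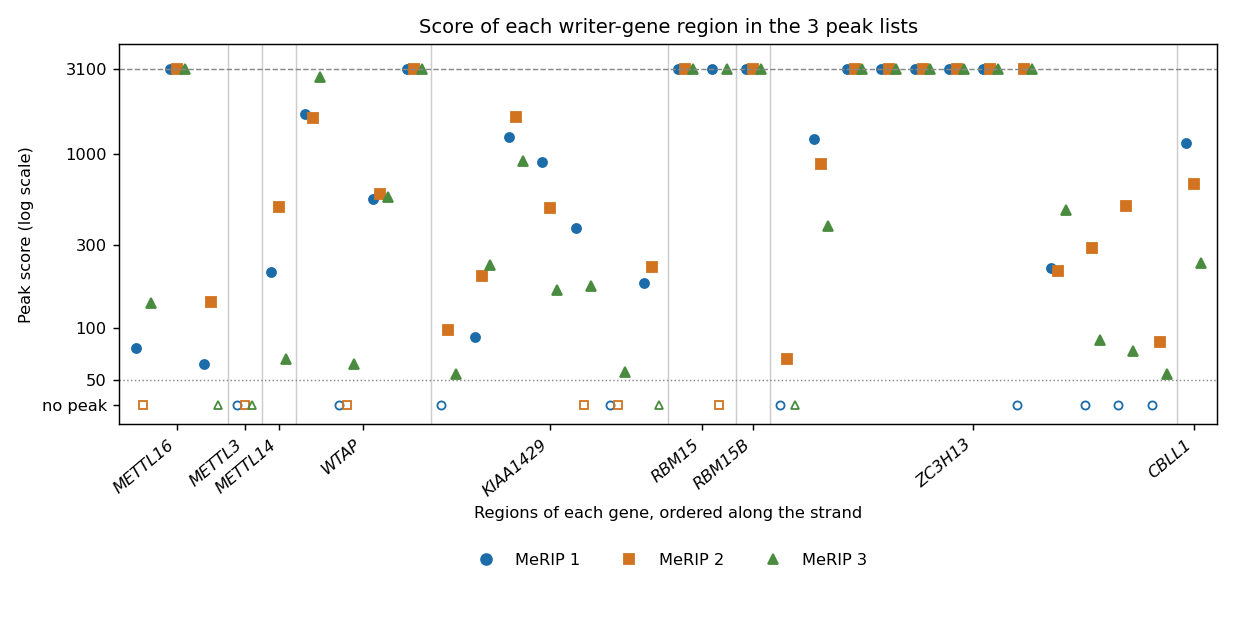
Score of each writer region in MeRIP 1 (circles), MeRIP 2 (squares) and MeRIP 3 (triangles) on a log axis, with regions ordered along the strand within each gene and open symbols for no peak. The dashed line is the ceiling of 3100 and the dotted line the lowest listed score of 50. RBM15, RBM15B and much of ZC3H13 lie on the ceiling, while KIAA1429, METTL14 and CBLL1 lie below it.

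RBM15 and RBM15B, related RNA-binding proteins that recruit the complex to its targets, XIST among them, were covered by peaks over the largest part of their spans. Spans are genomic lengths that include any introns, from 6647 bp for RBM15B to 106351 bp for METTL16. Shares of a span are therefore not comparable between genes. RBM15B, a gene without introns, had a single peak of 6638 bp, from base 51428699 to 51435336 on the plus strand of chromosome 3, at 3100 in each list. Both edges were the same to the base in all lists, and the peak covered 99.9% of the 6647 bp span. Of all 15265 regions found in 3 lists, 33 (0.216%) were at least as wide. The source annotation of the spans is not stated, and the span of RBM15B ends at the same base as the peak. The span of RBM15 also ends with its last region, and that of METTL16 begins with its most upstream region. Positions relative to these span ends may partly follow how the spans were chosen. A peak that fills a whole span does not say where in it the methylated bases lie.

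RBM15 had a peak of 3368 bp on the plus strand of chromosome 1, from base 110881945 to 110885312, also at 3100 in every list and with the same edges. Of regions in 3 lists, 3.52% were at least as wide. Its other region, 374 bp at 110888930 to 110889303 at the downstream end of the span, was at 3100 in MeRIP 1 and MeRIP 3 and had no peak in MeRIP 2. The gap of 3617 bp between these regions held no peak in any list. RBM15 peaks covered 50.8% of the span in MeRIP 1 and MeRIP 3 and 45.7% in MeRIP 2.

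ZC3H13, the zinc-finger subunit that anchors the complex in the nucleus, held the most regions of any writer gene. It had 12 regions on chromosome 13, 7 of them shared by all lists, 4 by 2 lists and 1 found once. Going downstream, the 5 regions at the ceiling in every list were 46562922 to 46563232, 46559432 to 46559896, 46553948 to 46554139, 46549418 to 46549973 and 46542883 to 46544106 on the minus strand. Their widths were 311, 465, 192, 556 and 1224 bp, and all 5 had identical edges in the 3 lists. Regions in 3 lists on the same strand within 10 kb were then chained. Of the 210 chains of 5 or more regions, 8 (3.81%) held 5 or more at the ceiling in each list, and ZC3H13, with 5 of 6, was one of them. This count was chosen after the values were seen.

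The other ZC3H13 regions were weaker or incomplete. The most upstream region in all lists, at 46577274 to 46577471, scored 1223 in MeRIP 1, 875 in MeRIP 2 and 385 in MeRIP 3. Another, at 46539415 to 46539567, scored 222, 212 and 475, with MeRIP 3 highest. All 4 regions found in 2 lists were absent from MeRIP 1. One of them, 525 bp at 46541639 to 46542163, was at 3100 in both MeRIP 2 and MeRIP 3. The other 3 lay downstream of it: the first scored 289 in MeRIP 2 and 85.4 in MeRIP 3, the next 504 and 73.7, and the last 83.6 and 54.6. A region of 343 bp near the upstream end of the span was found in MeRIP 2 alone, with 66.2. ZC3H13 peaks covered 3099 bp in MeRIP 1, 5582 bp in MeRIP 2 and 4894 bp in MeRIP 3, so that MeRIP 1 was lower than the other lists.

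CBLL1, also called HAKAI, a RING-finger ubiquitin ligase that belongs to the complex, had a single region, from base 107398588 to 107399971 on the plus strand of chromosome 7. Its score was 1161 in MeRIP 1, 670 in MeRIP 2 and 235 in MeRIP 3, a ratio of 4.93 between the highest and the lowest. The upstream edge was the same in all lists and the downstream edge moved by 87 bp. CBLL1 was the third gene, with METTL14 and RBM15B, to have 1 peak in each list.

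By the strongest peak of each gene, 5 genes could not be ranked among themselves, because METTL16, WTAP, RBM15, RBM15B and ZC3H13 were at 3100 in all 3 lists. Below them came KIAA1429 with 916 to 1632, CBLL1 with 235 to 1161 and METTL14 with 66.7 to 499.5, in this order in each of the 3 lists. The ranges of KIAA1429 and CBLL1 overlapped, as did those of CBLL1 and METTL14, while those of KIAA1429 and METTL14 did not. Since every gene was measured in the same 3 lists, neighbours were also compared within each list. KIAA1429 was above CBLL1 in 3 of 3 lists, by a log2 ratio of 1.12 ± 0.93 (SD, n = 3 lists). CBLL1 was above METTL14 in 3 of 3 by 1.57 ± 1.05. An exact two-sided sign-flip permutation test over the 3 lists gave p = 0.25 for each, the smallest it can give, so the test cannot show whether they differ.

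Covered length gave another order. RBM15B led with 6638 bp in every list, followed by ZC3H13 with 4525 ± 1282 bp (SD, n = 3 lists), RBM15 with 3617 ± 216 bp and METTL16 with 3065 ± 480 bp. WTAP had 1982 ± 767 bp, KIAA1429 1804 ± 297 bp, METTL14 1362 ± 60.1 bp and CBLL1 1345 ± 44.2 bp. RBM15B lay above the highest value of any other gene. The lowest value of ZC3H13, in MeRIP 1, was below the values of RBM15 and within those of METTL16, so the genes next to RBM15B overlapped. METTL14 and CBLL1 also overlapped and had the smallest spread of the genes whose length differed between lists.

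**Figure D3:**
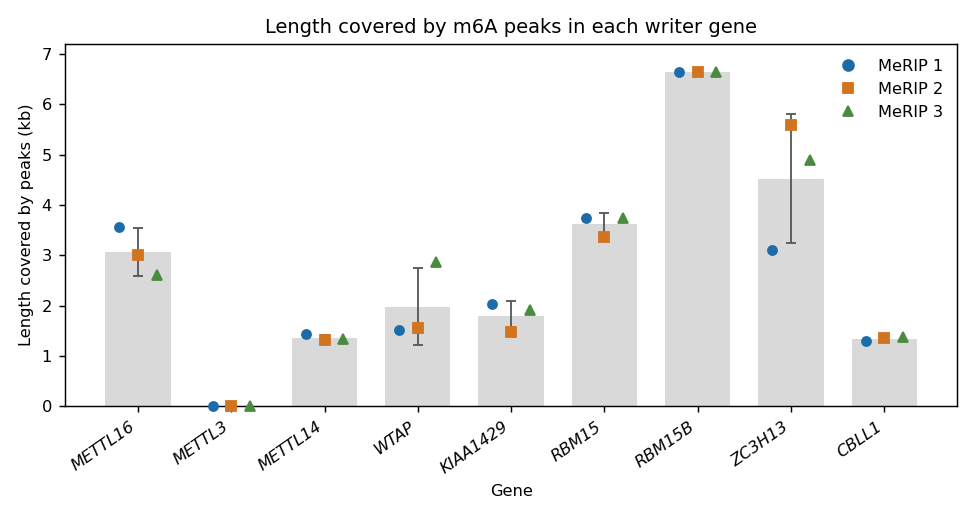
Length covered by peaks in each writer gene, in kb. Symbols are the 3 lists, bars their mean and error bars the SD (n = 3 lists). RBM15B is highest at 6638 bp in each list, ZC3H13 and WTAP vary most, and METTL3 is at 0.

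Scores of the same writer region differed between repeats. Below the ceiling in every list were 9 regions, of which 3 (33.3%, 95% Wilson interval 12.1 to 64.6%) had scores within 2-fold of one another, beside 52.4% of all such regions, and the interval includes that share. The 3 were the first and second of WTAP and the strongest of KIAA1429. The highest score of a region fell in MeRIP 1, 2 and 3 for 3 regions each. The lowest score fell in MeRIP 3 for 5 of the 9 regions and in MeRIP 1 and MeRIP 2 for 2 each. The like split over all regions of the series was not computed, so these counts cannot be called particular to the writers. CBLL1, the KIAA1429 region of 492 bp and the ZC3H13 region of 198 bp had MeRIP 1 highest and MeRIP 3 lowest.

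Most writer regions had the same edges in every list. Of the 18 regions in all 3 lists, 13 (72.2%) had the same start and end to the base, beside 72.7% of all regions with 1 peak in each list, again near the background. Another 4 (22.2%, beside 20.4%) shared the upstream edge alone: those of METTL14 and CBLL1, the strong region of METTL16 and the last of WTAP. The second WTAP region shared the downstream edge alone (5.56%, beside 4.70%), and its upstream edge moved by 5 bp. When regions in 2 lists were added, 19 of 28 had both edges the same, 7 had a free downstream edge and 2 a free upstream edge. Of the 7 with a free downstream edge, 5 were the last region of their gene along the strand, against 2 of the 19 with both edges the same. The exceptions were the strong METTL16 region and a ZC3H13 region at 46537588 to 46538177, which were followed by 1 and 2 further regions. METTL14, CBLL1 and RBM15B have a single region each, which is the last by definition. The like shares over all regions of the series were not computed, so these counts cannot be called particular to the writers.

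**Figure D4:**
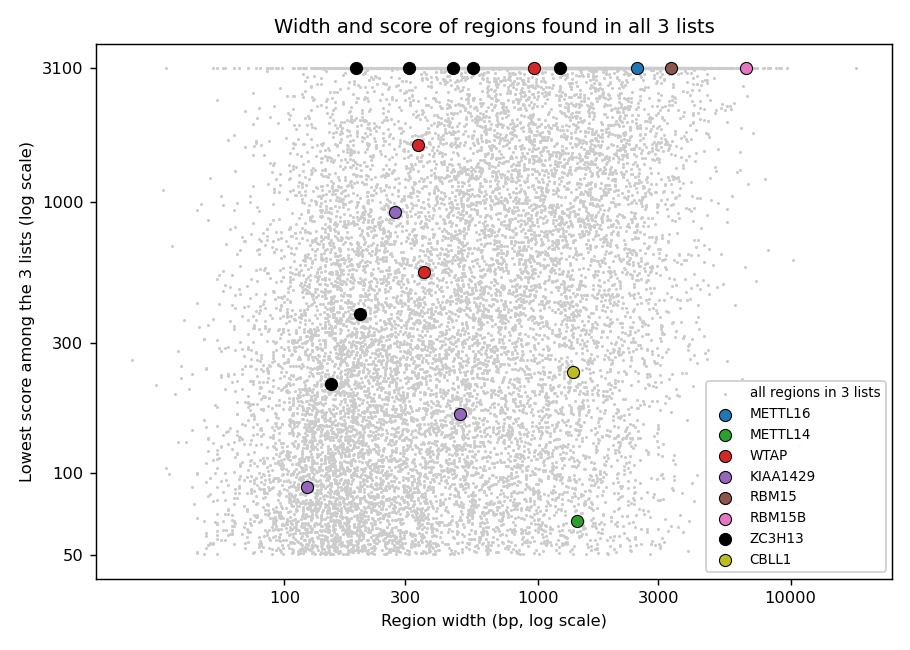
Width in bp and lowest score among the 3 lists, both on log axes, for every region found in all 3 lists (light grey) and for the 18 writer regions (coloured by gene). RBM15B is the widest writer region, the 5 ZC3H13 regions on the ceiling are from 192 to 1224 bp wide, and the METTL14 region is wide with a lowest score of 66.7.

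Regions missing from a single list ranged from weak ones near the lowest score to regions at the ceiling in both other repeats. Of the 10 writer regions in 2 lists, 5 were missing from MeRIP 1 (50%, beside 30.0% of all regions in 2 lists), 3 from MeRIP 2 (30%, beside 36.2%) and 2 from MeRIP 3 (20%, beside 33.8%). At the ceiling in both lists that held them were 2 of the 10 (20%), beside 2.70% of all regions in 2 lists, or 124 regions. These were the RBM15 region of 374 bp, without a peak in MeRIP 2, and the ZC3H13 region of 525 bp, without a peak in MeRIP 1. Peak numbers were compared around them. In MeRIP 1 the listed peaks on either side of the ZC3H13 gap carried consecutive numbers, with 0 skipped, so no separately numbered peak lay between their starts. In MeRIP 2 the numbers skipped 2 places between the first RBM15 peak and the next listed peak on the chromosome, 257.1 kb past the missing region.

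Neighbouring genes were checked because some writer genes overlap others. In RefSeq (GRCh38.p14), used here for names and for which genes lie side by side, all 9 genes were matched, 8 by symbol and KIAA1429 as an older name of VIRMA. METTL3 overlaps TOX4, WTAP overlaps SOD2, RBM15B overlaps DCAF1 and CBLL1 overlaps CBLL1-AS1 in that table. In the deposited lists 0 peaks on the opposite strand had their centre in a writer span. How the authors gave a peak its strand is not stated in the sources used here, so RNA of an overlapping gene on the other strand cannot be told apart from that of the writer gene.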

How the data were processed

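m6A was measured by immunoprecipitation and sequencing of rRNA-depleted RNA from HEK293T cells in 3 repeats, sequenced as 150 bp pairs (labels' protocols). The submitters' processing notes name cutadapt 1.9.3, HISAT2 2.0.4 and build hg19. Peak names carry the word MACS, while its version, its settings and the rule for listing a peak were not given in the sources used here. Each peak's score, deposited by the authors, is a number of at least 50 whose scale is read from the values. Scores above 3100 were set to 3100.

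Peaks were merged into regions at an overlap of 1 bp on the same strand and assigned to gene spans by their centre. The members, spans and lists were chosen with earlier results of these data known. All 9 genes are named. Single regions are named where they belong to METTL16, are strong, wide or incomplete, or differ most between lists, and others were added after their values were seen. The 95% Wilson intervals of shares cover counting error only. They treat regions as independent, though several lie in the same gene and all come from the same 3 lists. The only test was an exact sign-flip test over lists between neighbouring genes, added after the values were seen. Merging and edge calls were tested on simulated data. Coordinates are hg19, counted from 1, and sequences were not printed because no hg19 genome was used. Python 3.11.15, NumPy 2.4.6, SciPy 1.17.1 and Matplotlib 3.10.9 were used.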

Additional observations from a re-analysis of the deposited data

How the results depend on the processing

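Pull-down and input could not be paired, since every list as deposited already sets one against the other. Genes were paired by list, as a replicate block chosen after seeing the data, and 18 of 18 ordered gene pairs kept their direction within each list. Most of these pairs set a gene at 3100 in every list against a gene below it, so their direction was fixed beforehand. The rest only repeat the order of KIAA1429, CBLL1 and METTL14 given above. Of 51 values under alternatives, 45 stayed within 1.5 times the main count or within 1 SD of the main mean. Keeping only peaks that reach the median score in their list, which uses fewer peaks, gave a median log2 score of 11.6 and 1.81 peaks per gene, from 9.64 and 2.85. Summing scores in place of the strongest peak, by construction higher, moved the mean log2 value per gene from 10.6 to 11.3. Without ZC3H13, chosen after seeing the data, 11 regions were in all 3 lists, 4 were at the ceiling and 6 had identical edges, from 18, 9 and 13, since fewer regions remain. Leaving out 1 repeat gave 20 to 23 regions in both remaining lists, 9 to 10 of them at the ceiling. Assigning peaks by any overlap or on both strands changed none of the 6 results recomputed, and could not. There were 0 opposite-strand peaks centred in a span, and 0 same-strand peaks overlapped a span with their centre outside it. Scores as deposited could not change the median either, with 0 writer peaks above the ceiling. These fixed values are counted among the 45. By median peak score, 16 of those 18 pairs kept their order. Read depth is unknown, so an absent peak cannot be read as an absent mark.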
